A study of Homo sapiens with 4 samples.

Results

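The transcripts described here encode 10 plasma membrane amino acid transporters: SLC3A2, SLC7A5, SLC7A6, SLC7A11, SLC7A1, SLC1A5, SLC1A4, SLC38A1, SLC38A2 and SLC6A9. They were taken by gene symbol, and all 10 were found among the 23228 genes in the read count files of the 4 libraries. The libraries were made from ribosome-depleted total RNA of A673, an Ewing sarcoma cell line, 48 h after transfection with siRNA. Cells received scrambled siRNA (control_SMPD1 and control_GPR64), siRNA against SMPD1 (siSMPD1) or siRNA against GPR64 (siGPR64), with 1 library each. All 4 groups shared the same line, the same lipid transfection reagent and the same medium, which held serum, insulin and beta-mercaptoethanol. SMPD1 encodes acid sphingomyelinase, and GPR64 (ADGRG2) an adhesion G protein-coupled receptor. The control titled for GPR64 is paired here with siGPR64; the other shares the time point in its title with siSMPD1 and is called control_SMPD1 here.

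Amino acid transporters set how fast a cell can take up the building blocks of protein, glutathione and nucleotides. SLC3A2 is the heavy chain (4F2hc, CD98) that brings light chains of the SLC7 family to the cell surface, where each pair exchanges one amino acid for another. Shortage of amino acids activates the kinase GCN2, which favours translation of the transcription factor ATF4. ATF4 in turn binds C/EBP-ATF response elements at many of these transporter genes. Rapidly dividing tumour cells commonly express SLC7A5, SLC1A5 and SLC3A2 at high levels.

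Gene counts totalled 19614913 for control_SMPD1 and 18849264 for siSMPD1. The GPR64 pair was much shallower, with 2882854 for its control and 2534861 for siGPR64. Levels are given as scaled CPM, the field's standard unit of gene counts relative to library size, with library sizes corrected by TMM factors. SMPD1 itself stood at 414 CPM in control_SMPD1 and 52.8 CPM in control_GPR64, against 91.7 CPM in siSMPD1 and 232 CPM in siGPR64. The scrambled control of the GPR64 pair was thus below the SMPD1 knockdown library for this gene. Whether the labels of the GPR64 pair hold was not tested, and every siGPR64 ratio depends on them. GPR64 stood at 388, 539, 109 and 50.1 CPM in control_SMPD1, siSMPD1, control_GPR64 and siGPR64. Each target was lower in its own knockdown than in its paired control, yet SMPD1 was higher in siGPR64 than in control_GPR64. Because the controls differ, the transporter ratios are given against the paired control and against the other control. Of 11 Ewing sarcoma markers, 10 were above 1 CPM in every library, and CD99 was listed at 0 in all of them. Reads that align to several places (20.1% to 30.1% of entries) are left out of the gene counts. A listing of 0 therefore does not show that CD99 was absent, and whether such reads account for it was not tested. The labels give the tissue as muscle, yet of 8 skeletal muscle markers only MYH3 was above 1 CPM in every library, and MYOD1 and MYOG had no counts. Muscle markers summed to between 1.70 and 2.39 CPM, epithelial markers to between 0.343 and 2.49 CPM and immune markers to between 2.74 and 12.8 CPM. CD68, a lysosomal protein used as a macrophage marker, stood at 10.2 and 2.74 CPM in the controls of the SMPD1 and GPR64 pairs and at 12.7 and 7.05 CPM in siSMPD1 and siGPR64. Its part in the transporter ratios was not tested.

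Promoter sequence was available from RefSeq (GRCh38.p14, 250 bases before to 50 bases after the start) for 9 of the 10 genes, with 15 starts in all. SLC7A11 is not in that table. The core TGATGNAA of the C/EBP-ATF response element, searched on both strands, was found for 5 of the 9 genes and in 5 of their 15 windows. It was found for 4.46% of the 27305 genes in the table and in 3.62% of its 35116 windows. The 5 matches are shown because ATF4 binds this element, and whether they bear on the ratios below was not tested. Each line runs 5′ to 3′ on the strand of the gene, with the 8 letters of the match in capitals. SLC7A1, SLC38A1 and SLC1A5 carry it on the gene's strand, and SLC1A4 and SLC3A2 as the reverse complement.
SLC7A1: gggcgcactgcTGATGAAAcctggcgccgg
SLC1A5: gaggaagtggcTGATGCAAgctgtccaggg
SLC38A1: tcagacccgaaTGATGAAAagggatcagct
SLC1A4: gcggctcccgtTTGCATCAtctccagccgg
SLC3A2: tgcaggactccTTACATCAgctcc

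These windows lie at chr13:29595663-29595692 (SLC7A1, minus strand), chr19:46784893-46784922 (SLC1A5, minus), chr12:46266502-46266531 (SLC38A1, minus), chr2:64989381-64989410 (SLC1A4, plus) and chr11:62881725-62881748 (SLC3A2, plus). With the start site counted as 0, the match covers bases 7 to 14 for SLC7A1, -97 to -90 for SLC1A5, -4 to 3 for SLC38A1, -7 to 0 for SLC1A4 and 37 to 44 for SLC3A2. The start concerned is 1 of 3 listed for SLC1A5 and SLC3A2, 1 of 2 for SLC38A1 and SLC1A4, and the single listed start of SLC7A1. The antioxidant response element core TGACNNNGC was found for 5 of the 9 genes (SLC7A1, SLC7A5, SLC7A6, SLC3A2 and SLC1A5), against 16.1% of genes in the table. By window it was found in 5 of their 15, against 13.3% of all windows. The E-box CACGTG, which reads the same on both strands, was found in 2 of the 15 windows, against 7.26% of all windows. By gene it was found for SLC7A5 and SLC1A5, against 8.77% of genes. Both are shown because MYC, which binds this motif, is a known activator of these genes.
SLC7A5: ggccggacgacgCACGTGctccgagctggg
SLC1A5: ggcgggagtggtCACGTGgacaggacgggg

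The SLC7A5 window lies at chr16:87869620-87869649 and that of SLC1A5 at chr19:46787326-46787355, at another start than the match above, both on the minus strand. These matches describe letters in a window, and binding was not measured here.

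The first question was whether the transporters differed when SMPD1 or GPR64 was silenced. Most of the 10 transcripts had lower values in both knockdown libraries, and 1 in each pair was past 2-fold. In siSMPD1 all 10 ratios to the paired control were below 1, from 1.08-fold to 2.09-fold lower, with a median log2 ratio of -0.60. In siGPR64 9 of 10 were below 1, with a median of -0.45, a lowest log2 ratio of -1.74 and a highest of 0.31. Over all genes measured the medians were -0.00 and 0.01. For 7 of the 10 genes both knockdown libraries lay below both controls, and for none did both lie above. Among all 12887 genes whose mean reached 1 CPM, 13.4% had both knockdowns below both controls and 13.5% both above. Among the 3891 genes at or above the mean level of the lowest transporter 14.2% had both below. The transporters were chosen with earlier results of these libraries known, and this count after the values were seen. An excess over all genes is therefore no independent evidence.

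**Figure D1:**
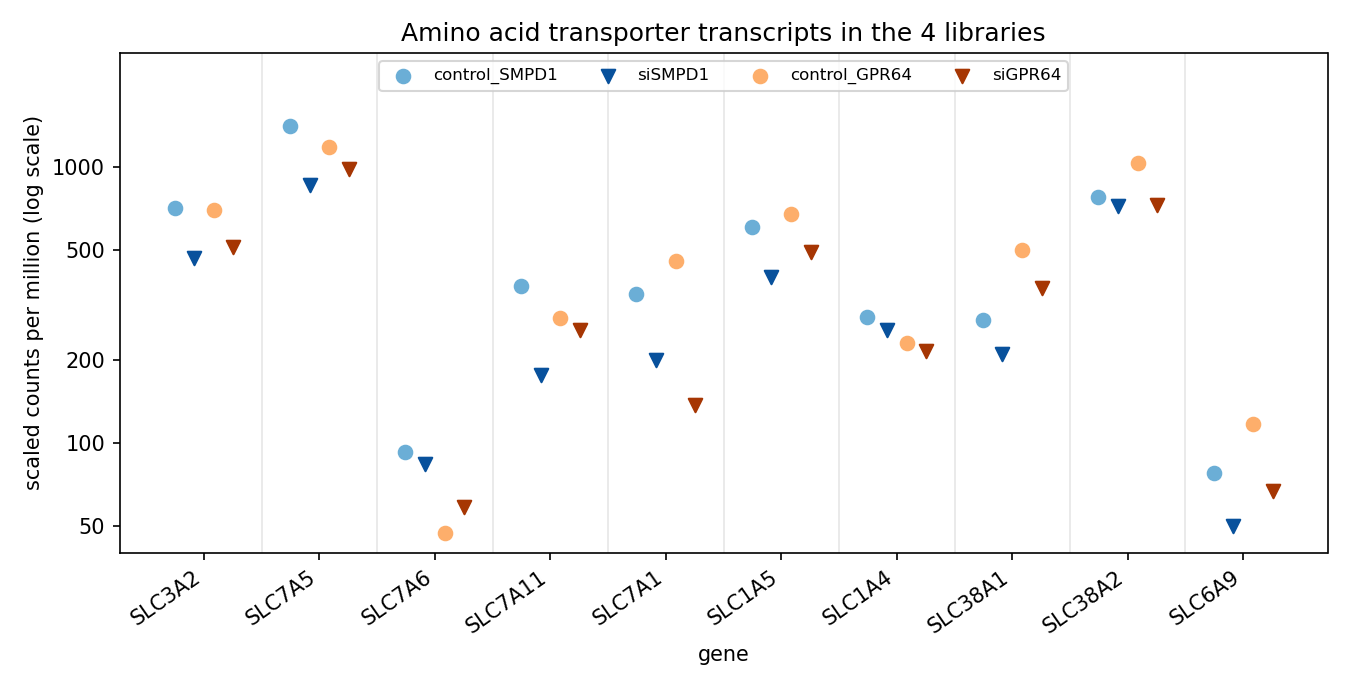
Scaled CPM (log axis) of each transporter gene in the 4 libraries, with circles for scrambled-siRNA controls and triangles for knockdowns, 1 library per point and no error bars. Both triangles lie below both circles for 7 genes, and SLC7A6, SLC1A4 and SLC38A1 are the exceptions.

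Summed over the 10 genes, the transporters took 0.488% of gene counts in the control of the SMPD1 pair and 0.344% in its knockdown. The GPR64 pair had 0.531% and 0.385%. Both knockdown libraries thus gave a smaller share of their reads to these genes than either control. Each ratio compares 2 libraries, with an exact 95% interval that covers counting error only, and no difference has a replicate check. That interval lay below 1 for all 10 genes in siSMPD1. It did so there for 28.8% of all genes measured and 44.0% of genes at or above the mean level of the lowest transporter. That level is a floor, so these genes are not matched to the transporters in counts. The interval lay below 1 for 8 of 10 in siGPR64, against 20.2% and 28.2%. The pairs share no library, and in both at once it lay below 1 for 8 of the 10, against 8.43% and 14.8%. Because the transporters were chosen with earlier results known, these shares describe the list and test nothing. RNA per cell was not measured, so fewer transcripts per cell and another mix of cells in a culture cannot be told apart.

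A gene was called different by a rule of size, which asks for 2-fold or more, an interval that excludes 1, and 1 CPM or more on average in the libraries compared. By this rule 1 transporter was lower and none higher in siSMPD1 (SLC7A11), where 1.11% of genes were lower and 2.49% higher. In siGPR64 1 was lower (SLC7A1) and none higher, where 5.18% of genes were lower and 6.56% higher. In each pair the other 9 fell short of 2-fold.

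**Figure D2:**
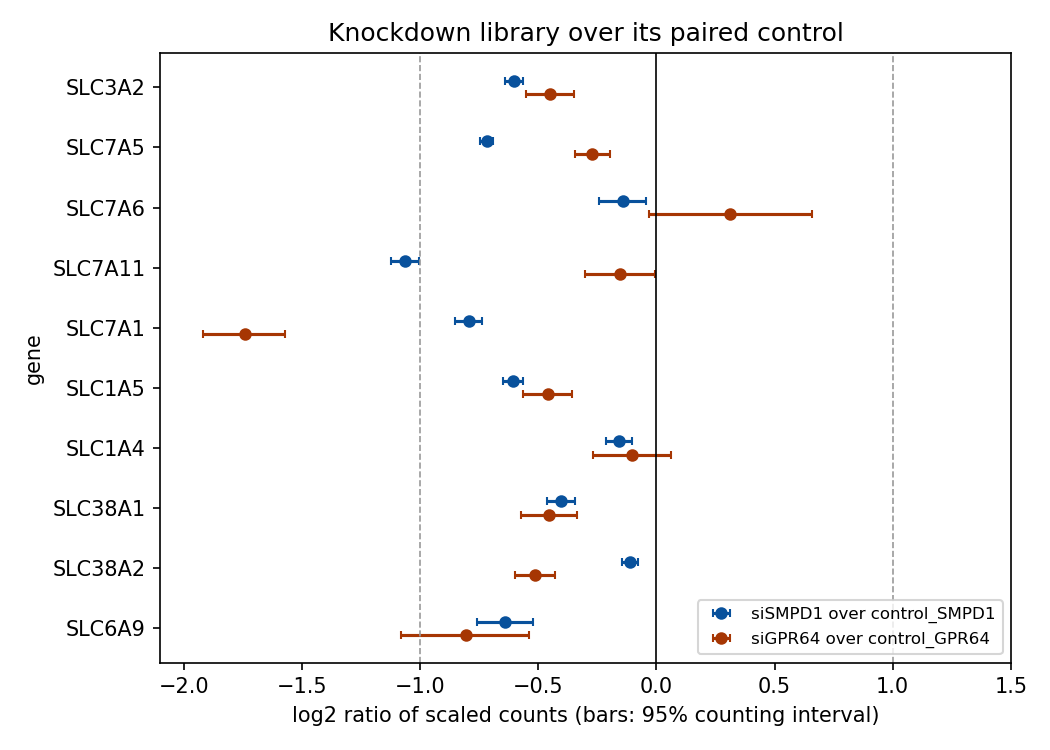
Log2 ratio of each knockdown library to its paired control for the 10 transporter genes, with bars for the 95% counting interval and dashed lines at 2-fold. SLC7A11 in siSMPD1 and SLC7A1 in siGPR64 lie beyond the 2-fold line, and the only point above 0 is SLC7A6 in siGPR64.

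The heavy chain SLC3A2 and its light chains come first. SLC3A2 stood at 714 CPM in control_SMPD1 and 702 CPM in control_GPR64, against 470.3 CPM in siSMPD1 and 514 CPM in siGPR64. The controls differed by 1.02-fold, with an interval that includes 1 (log2 -0.09 to 0.04), and both knockdowns were below them. SLC3A2 was lower by 1.52-fold in siSMPD1 (1.48 to 1.56) and by 1.36-fold in siGPR64 (1.27 to 1.46). Against the other control the factors were 1.49-fold and 1.39-fold, so neither rests on the choice of control.

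SLC7A5 (LAT1), the light chain that imports leucine and other large neutral amino acids, stood at 1419, 863, 1189 and 986 CPM in control_SMPD1, siSMPD1, control_GPR64 and siGPR64. Both knockdowns were again below both controls, with siSMPD1 lowest. SLC7A5 was lower by 1.65-fold in siSMPD1 (1.61 to 1.68) and by 1.21-fold in siGPR64 (1.15 to 1.27). Per kilobase of exon it was the most abundant of the 10 in every library, at 299, 182, 251 and 208 CPM per kb in the same order. Reads that align to several places are not in the gene counts, and SLC7A5 has the partial copies SLC7A5P1 and SLC7A5P2. These were listed with between 5 and 38 counts per library, against at least 2516 for SLC7A5.

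SLC7A6 (y+LAT2), a light chain that exchanges arginine for glutamine and sodium, had another pattern. It stood at 92.7, 84.0, 47.3 and 58.8 CPM in control_SMPD1, siSMPD1, control_GPR64 and siGPR64. The libraries fell by pair and not by treatment, with both libraries of the SMPD1 pair above both of the GPR64 pair. The ratio was 1.10-fold lower in siSMPD1 (1.03 to 1.18). In siGPR64 it was at 1.24-fold, with an interval from 0.980 to 1.58 on 150 and 138 counts. Between the controls it was 1.96-fold lower in control_GPR64 (1.65 to 2.35), just short of 2-fold. SLC7A6OS overlaps this gene on the opposite strand and had 62 to 439 counts. Whether the counting used strand is not stated in any source used here, so reads of such partners cannot be told apart.

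SLC7A11 (xCT), the light chain that imports cystine for glutathione synthesis in exchange for glutamate, was the one transporter past 2-fold in siSMPD1. It had 371 CPM in control_SMPD1 and 285 CPM in control_GPR64, against 177 CPM in siSMPD1 and 257 CPM in siGPR64. The siSMPD1 library stood apart below the other 3. It was 2.09-fold lower than its paired control (2.01 to 2.18). Against control_GPR64 it was 1.61-fold lower, under the rule. In siGPR64 it was 1.11-fold lower than its control (1.003 to 1.23) and 1.45-fold lower than control_SMPD1 (1.33 to 1.57). Against the paired controls the log2 ratio of siGPR64 was higher by 0.91 than that of siSMPD1 (counting interval 0.75 to 1.07). The size of this contrast depends on the control, as control_GPR64 was itself 1.30-fold below control_SMPD1 (1.21 to 1.40).

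Within a library the ratio of 2 genes' counts needs no scaling, and its change between libraries does not depend on gene length. SLC3A2 had 1.92 counts per count of SLC7A11 in control_SMPD1 and 2.65 in siSMPD1, a log2 change of 0.46 (0.39 to 0.53). In the GPR64 pair it was 2.46 in the control and 2.005 in siGPR64, a change of -0.30 (-0.47 to -0.12). Against the paired controls the heavy chain was thus reduced less than this light chain in siSMPD1 and more in siGPR64. Between the controls this ratio was higher in control_GPR64 by 0.35 (0.23 to 0.48). The siGPR64 ratio lay above that of control_SMPD1, so its direction depends on the control, while siSMPD1 lay above both controls. Relative to SLC7A5 the SLC3A2 change was 0.12 (0.07 to 0.16) in siSMPD1 and -0.18 (-0.30 to -0.05) in siGPR64. Between the controls it was 0.23 (0.15 to 0.31), and both knockdowns lay between the controls.

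SLC7A1 (CAT1), which takes up arginine and lysine without a heavy chain, gave the largest ratio of the 10. Its level was 348 CPM in control_SMPD1 and 459 CPM in control_GPR64, against 201 CPM in siSMPD1 and 137 CPM in siGPR64. Both knockdowns were far below both controls, and the higher knockdown was still 1.73-fold below the lower control, the widest such gap among the 10. In siGPR64 it was 3.34-fold lower than the paired control (2.97 to 3.78) and 2.54-fold lower than control_SMPD1 (2.28 to 2.84). It was the only transporter past the rule in its pair that was also 2-fold lower against the other control, as were 1.89% of genes measured in siGPR64. In siSMPD1 it was 1.73-fold lower than the paired control (1.67 to 1.81) and 2.29-fold lower than control_GPR64 (2.15 to 2.43). The log2 ratio of the siGPR64 pair was lower by a difference of -0.95 (-1.13 to -0.77) than that of the siSMPD1 pair. The size of this difference depends on the control, as control_GPR64 was itself 1.32-fold above control_SMPD1 (1.24 to 1.40). With the controls exchanged the log2 ratios were -1.34 in siGPR64 and -1.19 in siSMPD1. By level per kilobase SLC7A1 had rank 5 of the 10 in both controls, rank 6 in siSMPD1 and rank 8 in siGPR64.

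SLC1A5 (ASCT2) and SLC1A4 (ASCT1) are sodium-dependent exchangers of small neutral amino acids, and SLC1A5 is a main route for glutamine. SLC1A5 stood at 610.1, 401, 676 and 491 CPM in control_SMPD1, siSMPD1, control_GPR64 and siGPR64. Both knockdowns were below both controls. SLC1A5 was lower by 1.52-fold in siSMPD1 (1.48 to 1.57) and by 1.38-fold in siGPR64 (1.28 to 1.48). Its level per kilobase was the second of the 10 in all 4 libraries.

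SLC1A4 stood at 287, 257, 231 and 215 CPM in the same order. It varied least of the 10, with 1.33-fold between the highest and the lowest library, and the groups overlapped. SLC1A4 was 1.12-fold lower in siSMPD1 (1.07 to 1.16). In siGPR64 it was 1.07-fold lower, with an interval from 0.957 to 1.20. Against control_GPR64 the siSMPD1 library was 1.11-fold higher for SLC1A4. SLC1A5 counts per SLC1A4 count went from 2.13 to 1.56 in siSMPD1, a log2 change of -0.45 (-0.52 to -0.38). They went from 2.92 to 2.28 in siGPR64, a change of -0.36 (-0.55 to -0.17). Between the controls this ratio was higher in control_GPR64 by 0.46 (0.32 to 0.59). The siSMPD1 ratio lay below both controls. The siGPR64 ratio lay above that of control_SMPD1, so its direction depends on the control.

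SLC38A1 (SNAT1) and SLC38A2 (SNAT2) bring in glutamine, alanine and other neutral amino acids with sodium, and SLC38A2 is the carrier classically induced by amino acid shortage. SLC38A2 stood at 782, 724, 1039 and 727 CPM in control_SMPD1, siSMPD1, control_GPR64 and siGPR64. The knockdowns were nearly level with each other, and control_GPR64 was the high library. SLC38A2 was lower by 1.08-fold in siSMPD1 (1.06 to 1.11) and by 1.43-fold in siGPR64 (1.35 to 1.51). Against the other control these became 1.43-fold and 1.07-fold, so the order of the knockdowns for this gene follows the control that is used.

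SLC38A1 stood at 279, 211, 501 and 365 CPM in the same order. Here both libraries of the GPR64 pair were above control_SMPD1. SLC38A1 was lower by 1.32-fold in siSMPD1 (1.27 to 1.38) and by 1.37-fold in siGPR64 (1.26 to 1.49), and the difference between the pairs was -0.05 (-0.18 to 0.08). Against control_SMPD1, however, siGPR64 was 1.31-fold higher (1.22 to 1.41). Its direction in siGPR64 therefore depends on the control. Between the controls it was 1.80-fold higher in control_GPR64 (1.70 to 1.90).

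SLC6A9 (GLYT1), a glycine transporter of the neurotransmitter family, stood at 77.7 CPM in control_SMPD1 and 117 CPM in control_GPR64, against 49.8 CPM in siSMPD1 and 67.0 CPM in siGPR64. Both knockdowns were below both controls, on counts of 940 and 171. SLC6A9 was lower by 1.56-fold in siSMPD1 (1.44 to 1.69) and by 1.75-fold in siGPR64 (1.45 to 2.11). Against the other control the values were 2.35-fold lower for siSMPD1 and 1.16-fold lower for siGPR64, the latter with an interval that includes 1 (log2 -0.45 to 0.02). CCDC24 overlaps SLC6A9 on the opposite strand with 5 to 159 counts.

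The second question was how far these values rest on the control library. Between the scrambled-siRNA controls, 5 transporters were higher and 5 lower in control_GPR64, with a median log2 ratio of 0.06. None passed the rule of size, by which 8.33% of genes were lower and 7.02% higher. The interval lay below 1 for 4 (29.4% of genes measured) and above 1 for 5 (27.9%), so the controls differed by more than counting error for all but SLC3A2. The spread, from -0.97 for SLC7A6 to 0.85 for SLC38A1, was as wide as most knockdown ratios. With the controls exchanged, the interval lay below 1 for 8 of 10 in siSMPD1 (29.7% of genes measured) and above 1 for SLC7A6 and SLC1A4 (30.9%). It lay below 1 for 8 of 10 in siGPR64 (25.3%) and above 1 for SLC38A1 (25.5%). The medians were then -0.63 for siSMPD1 and -0.44 for siGPR64. Against control_GPR64 3 transporters passed the rule in siSMPD1 (SLC7A1, SLC38A1 and SLC6A9), all of them lower, where 8.02% of genes were lower and 10.5% higher. SLC7A11 did not pass. Against control_SMPD1 SLC7A1 passed alone in siGPR64, where 5.25% of genes were lower and 6.18% higher. No transporter passed its paired comparison in siSMPD1 and was also 2-fold lower against the other control, as 0.635% of genes were.

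**Figure D3:**
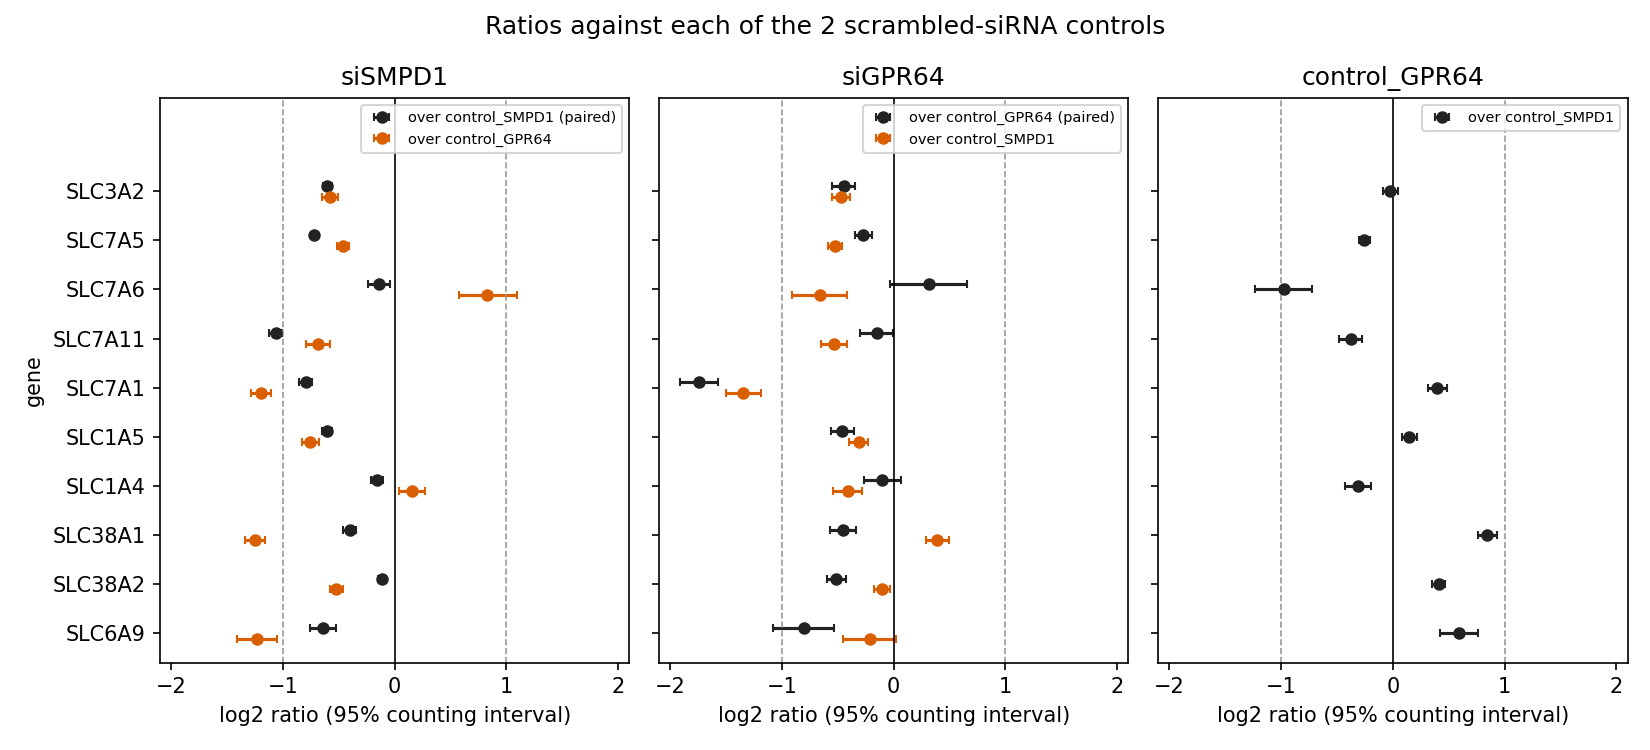
Log2 ratios of siSMPD1 and of siGPR64 to each control, and of control_GPR64 to control_SMPD1, for the 10 transporter genes, with 95% counting intervals and dashed lines at 2-fold. Black points are the paired control (or the comparison of controls) and orange points the other control. SLC7A6, SLC1A4 and SLC38A1 are the genes for which black and orange points lie on opposite sides of 0.

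Of a list of 30 other amino acid transporters of the plasma membrane, 13 were measured in each pair. In siSMPD1 1 was lower, none higher and 12 were short of the rule, with a median log2 ratio of 0.22. That gene was SLC7A7 (y+LAT1), a relative of SLC7A6, at 2.18-fold lower (1.44 to 3.43) on 33 and 74 counts. In siGPR64 3 were lower, 4 higher and 6 short of the rule, with a median of 0.56. SLC7A3 (CAT3), a paralog of SLC7A1, was 5.72-fold lower (3.20 to 11.9) and SLC7A8 (LAT2), a paralog of SLC7A5, 3.57-fold lower (2.18 to 6.36). SLC6A15, a carrier of branched-chain amino acids and proline, was 3.74-fold higher (2.53 to 5.82), and SLC6A6, the taurine transporter, 3.03-fold higher (2.49 to 3.73). SLC6A6 stood at 141 CPM in control_SMPD1 and 143 CPM in siGPR64, so its ratio arises against control_GPR64 at 46.9 CPM. The direction of SLC7A3 in siGPR64 also turns with the control: control_GPR64 stood at 27.7 CPM and control_SMPD1 at 1.72 CPM, and against the latter siGPR64 was 2.69-fold higher (1.29 to 5.44). Against the other control 3 were lower and 5 higher in siSMPD1, and 2 lower and 3 higher in siGPR64. Of these 13 genes 1 had both knockdowns below both controls and 2 had both above.

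Lysosomal and other intracellular amino acid carriers were near all genes. Of 17 measured, none passed the rule in siSMPD1 (median 0.03), with the largest ratios at -0.62 for SFXN2, a mitochondrial sideroflexin, and -0.60 for SLC38A7, a lysosomal glutamine and asparagine exporter. In siGPR64 SLC38A7 was 2.50-fold higher (1.52 to 4.35) and was the only 1 past the rule, with a median of 0.02. Against control_GPR64 the siSMPD1 library had 1 of the 17 lower and 2 higher.

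Of 29 other genes of the amino acid response that were measured, 9 were lower and none higher in siSMPD1 (median -0.71), and 16 were lower and none higher in siGPR64 (median -1.33). For 21 of the 29 both knockdowns lay below both controls. TRIB3, a pseudokinase induced by ATF4, stood at 225, 91.5, 671 and 107 CPM in control_SMPD1, siSMPD1, control_GPR64 and siGPR64. PCK2, the mitochondrial phosphoenolpyruvate carboxykinase, stood at 133, 56.3, 224 and 37.6 CPM. Like SLC7A1, both were lower in each knockdown than in either control. GDF15, a stress-induced secreted factor, was 11.6-fold lower in siGPR64 (7.04 to 21.6) than in control_GPR64, which stood at 69.9 CPM. Against control_SMPD1, at 3.02 CPM, the same library was 1.93-fold higher (1.02 to 3.48), so the direction of GDF15 turns with the control. DDIT4, whose protein restrains mTORC1, stood 5.55-fold below its control there (4.49 to 6.97). For ALDH1L2, an enzyme of mitochondrial folate metabolism, the siSMPD1 library was 2.57-fold lower (2.35 to 2.81) and siGPR64 was 1.63-fold higher (1.22 to 2.20), short of the rule. With the controls exchanged, ALDH1L2 was 1.31-fold higher in siSMPD1 and 2.06-fold lower in siGPR64. Against the other control 21 were lower in siSMPD1 (median -1.42) but 6 in siGPR64 (median -0.52), with none higher. This list was chosen with earlier results of these libraries known and is no independent evidence of its direction. Between the controls its median was 0.75 and 10 members were higher and 1 lower in control_GPR64, whereas the 10 transporters had a median of 0.06 and none higher.

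**Figure D4:**
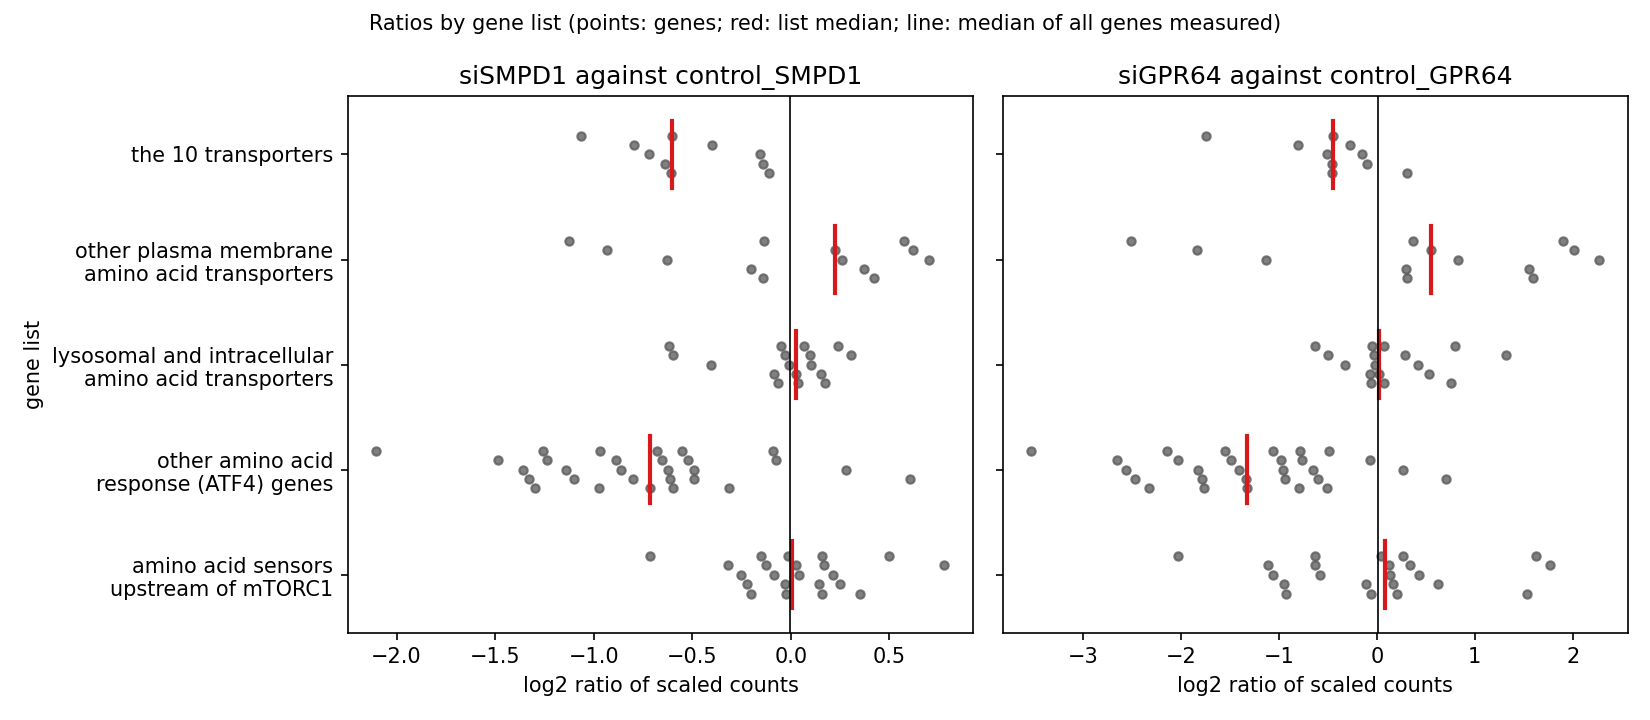
Log2 ratios to the paired control by gene list, with a point per measured gene, a red bar at the list's median and a vertical line at the median of all genes measured. The horizontal axes differ between the panels. The 10 transporters and the other amino acid response genes have medians of -0.60 and -0.71 in siSMPD1 and -0.45 and -1.33 in siGPR64.

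Among 14 measured transcription factors known to act on these genes, ATF5 was the only 1 past the rule in siSMPD1, at 4.29-fold lower (4.12 to 4.47). In siGPR64 DDIT3 (CHOP) was 3.53-fold lower (2.87 to 4.41) and ATF5 2.94-fold lower (2.73 to 3.16). Against control_SMPD1 no factor passed the rule in siGPR64, and against control_GPR64 4 were lower in siSMPD1. ATF4, MYC and NFE2L2, named here after their values were seen, stayed short of 2-fold. ATF4 stood at 415, 322, 571 and 415 CPM in control_SMPD1, siSMPD1, control_GPR64 and siGPR64. MYC, a driver of SLC7A5 and SLC1A5 transcription in many tumours, stood at 168, 167, 189 and 248 CPM. NFE2L2, which encodes NRF2, an activator of SLC7A11, stood at 150.3, 157, 182 and 136 CPM.

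Of 22 measured sensors and regulators that couple amino acids to the kinase mTORC1, none passed the rule in siSMPD1 (median 0.00). The largest ratios there were 0.78 for GATSL3 (CASTOR1), an arginine sensor, and -0.71 for SESN2, a leucine sensor and ATF4 target. In siGPR64 2 were lower and 3 higher. In that pair SESN2 was 4.09-fold lower (3.34 to 5.08). The Rag GTPase genes RRAGC and RRAGD were 3.09-fold and 2.90-fold higher, and FLCN, which acts on RagC and RagD, was 3.40-fold higher (2.65 to 4.45). Against control_SMPD1 none of the 22 passed in siGPR64, where log2 ratios ran from -1.55 to 0.99. These calls therefore need control_GPR64, but a direction can hold without a call. FLCN was still higher against control_SMPD1, short of 2-fold. Against control_GPR64 2 were lower and 2 higher in siSMPD1.

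Patterns over the 4 libraries were compared by Euclidean distance between log2 CPM values centred on each gene's own mean. SLC3A2 and SLC1A5 were each other's nearest transporter (distance 0.17), and SLC7A5 was nearest to SLC3A2 (0.17). SLC7A1 was far from every other transporter, with SLC6A9 nearest at 0.89. The median profile of the 10 was 0.24 in control_SMPD1 and 0.29 in control_GPR64, against -0.36 in siSMPD1 and -0.16 in siGPR64. Of 9795 other genes averaging 10 CPM or more, the 5 closest to it were ZNF680 (distance 0.03), PAPD4 (0.06), XPOT (0.07), TRUB1 (0.07) and NARS (0.08). XPOT exports tRNA from the nucleus, TRUB1 is a pseudouridine synthase acting on tRNA, and NARS charges asparagine onto its tRNA. With 4 libraries many genes can lie this close, and these distances are descriptions.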

How the data were processed

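Total RNA sequencing counts of 4 A673 libraries were used, 1 per group as titled. Values in the deposited files are raw read counts for each gene symbol, made by the authors; per the submitters' processing notes they used bcl2fastq, TopHat2, SAMtools and HTSeq on hg19, while versions, annotation and strand setting are not given in the sources used. The 5 HTSeq summary lines (36.5% to 44.8% of entries) were left out. Counts were scaled with TMM factors (edgeR 4.0.16, R 4.3.3) over 13664 genes that reached 1 CPM in any library. Log2 ratios used a prior of 0.5 count. The 95% intervals are exact Clopper-Pearson intervals of the reads in 2 libraries and cover counting error only; reads carry no molecular identifiers. With 1 library per group no p-value was computed for a pair. Alternative fits, by DESeq2 1.42.0 and by the quasi-likelihood test of edgeR, took both controls as 1 group. Exon lengths are unions of GENCODE 29 exons (GRCh38), not the authors' gene models. Genes with the closest patterns, up to 4 genes per list past the rule in either pair (otherwise 2 by size), all 10 transporters and both targets are named. The transporters and lists were chosen with earlier results of these data known. Several starts can be listed per gene in the promoter table, and protein sequences were not used here.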

Additional observations from a re-analysis of the deposited data

Results flagged for a closer look

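The 10 transporters, the genes named from the lists and both targets, 31 genes in all, were checked for ratios on opposite sides of 1 in the 2 knockdown pairs, with counting intervals that exclude 1 in each. None of the 10 transporters met this. Of the other genes, 10 did. The share of all genes that met this is not given here. Genes from the lists were named for passing the rule in a pair or for the size of their ratio. The 2 counts are therefore not comparable and say nothing about the transporters. Each difference below is the log2 ratio of the siGPR64 pair minus that of the siSMPD1 pair, and with 1 library per group none was tested.

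Among other plasma membrane carriers, SLC7A7 differed by 3.14 (on 12 and 3 counts in the GPR64 pair), SLC6A15 by 2.84, SLC7A3 by -3.22 and SLC7A8 by -2.26. The lysosomal exporter SLC38A7 differed by 1.92. The difference was 2.07 for ALDH1L2, a mitochondrial folate enzyme, and -3.08 for DDIT4, an inhibitor of mTORC1. It was 2.09 for FLCN. The targets also met it, with 4.31 for SMPD1 and -1.59 for GPR64.

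These contrasts depend on the control. With the controls exchanged, both signs turned for ALDH1L2 (log2 ratio 0.39 in siSMPD1 and -1.04 in siGPR64), SLC7A3 (-3.28 and 1.43) and SMPD1 (0.80 and -0.84). DDIT4 was then lower in both (-0.42 and -1.45) and FLCN higher in both (0.47 and 0.98). The siSMPD1 interval included 1 for SLC38A7 (-0.38), and both intervals did for SLC7A7 (0.74 and 0.28). SLC6A15 (-1.68 and 2.67), SLC7A8 (1.22 and -2.65) and GPR64 (2.31 and -2.95) kept both signs.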

How the results depend on the processing

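The 10 transporters kept their calls in both knockdown pairs and between the controls with DESeq2 size factors, total counts or upper-quartile factors, without the low-count filter, with a minimum of 5 CPM and with a prior of 2 counts. With a threshold of 1.5-fold, 6 transporters were lower in siSMPD1 (4.78% of all genes measured) and 2 in siGPR64 (11.3%), 4 passed against both controls in siSMPD1 (2.56%), and between the controls 1 was lower (16.6%) and 2 higher (14.6%) in control_GPR64. Against the other control 3 were lower in siSMPD1. With both controls as 1 group, which leaves 1 residual degree of freedom, edgeR's quasi-likelihood test called 0 transporters in siSMPD1 and 0 in siGPR64 at an adjusted p under 0.05 (1 and 1 at an unadjusted p under 0.05), and DESeq2 called 0 and 0 (2 and 1 unadjusted). Over all genes edgeR called 0 in either knockdown, with 179 and 313 at an unadjusted p under 0.05, and DESeq2 called 1 and 0. SLC7A1 in siGPR64 had an adjusted p of 0.884 in DESeq2. The count of 7 transporters with both knockdowns below both controls, chosen after the values were seen, was 7 under each scaling. It was 9 without control_GPR64 and 8 without any other library. Leaving a library out can only keep or raise this count, so these values are no check of it. No paired analysis was possible because the titles carry no replicate number and each knockdown has 1 library and 1 paired control, which leaves no residual degree of freedom for either knockdown. No replicate could be left out for the same reason. The GPR64 pair has far fewer counts, so its intervals are wider, and ratios near 1 such as those of SLC7A6 and SLC1A4 were not resolved at that depth.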
